A study of Rattus norvegicus with 15 samples.

Results

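The genes described here are the 8 that carry the canonical cyclic AMP (cAMP) response of olfactory sensory neurons to odorants: Gnal, Adcy3, Cnga2, Cnga4, Cngb1, Pde1c, Pde4a and Slc12a2. Their RNA was measured in olfactory epithelium, the odor-sensing lining of the nasal cavity, taken from Brown Norway rats at 6 weeks of age. The members were found by gene name in the array annotation, after removal of the endings that mark predicted or mapped genes. All 8 genes had a probe, with 13 probes among the 41012 on the array that are not controls and 8 genes among 35561 gene names. The 15 one-color arrays came from 4 males (7 arrays) and 4 females (8 arrays), with both nostrils of 7 rats and nostril A alone of male 1. The labels give sex, strain, age and nostril for each sample. The animals came from 2 suppliers, each with males and females. The labels give neither the supplier of a rat nor the side of nostril A or B. The study's methods say that the sample lost to RNA quality was the left one of a male from Elevage Janvier, and male 1 is the only rat with a single array, which makes its missing nostril B the left one. The sources used here place no other rat, so suppliers were not compared. The labels name no treatment and no altered allele in any group.

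An odorant receptor that binds its odorant activates the G protein subunit encoded by Gnal, which switches on adenylyl cyclase 3 (Adcy3). The cAMP made opens a channel in the cilia that is built from the Cnga2, Cnga4 and Cngb1 subunits, and calcium enters the cilium. Phosphodiesterases degrade cAMP, Pde1c in the cilia and Pde4a elsewhere in the neuron. Calcium also opens a chloride channel, and chloride can flow out because the cotransporter encoded by Slc12a2 has loaded the neuron with it.

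Each probe was an oligonucleotide of 60 bases, and the level of a gene is what such a probe captured. Gnal had 3 probes, Cngb1, Pde1c and Slc12a2 had more than 1, and the other genes had a single probe. Positions follow the annotation of the array on rat build rn3, in which the gene part (exon, intron or untranslated region) is not named. Gnal lies at chr18:63716372-63716630, chr18:63805929-63808861 and chr18:63809949-63810008 for its 3 probes, and Adcy3 at chr6:27203254-27203313. The channel subunit probes lie at chrX:157632756-157632815 (Cnga2), chr1:163236259-163236318 (Cnga4) and, for Cngb1, chr19:10255150-10255209 and chr19:10214209-10214268. The Pde1c probes lie at chr4:85231603-85231662 and chr4:85180660-85180719, Pde4a at chr8:20240912-20240971, and the Slc12a2 probes at chr18:53762197-53764537 and chr18:53803861-53803920. In 3 probes, the 60 bases are placed over a longer stretch of the genome than the probe itself: 259 bases and 2933 bases for Gnal A_43_P10315 and A_44_P137560, and 2341 bases for Slc12a2 A_44_P163408. The sequences below are those of probes on which the results turn. The Slc12a2 probe is the one that separated the rats, these Gnal probes had the smallest p-values between the sexes among the 13, and Adcy3, Cnga4 and Cngb1 represent the 2 sets of genes that varied together. They are written 5′ to 3′ in lower case, and no part is marked.
Slc12a2 A_44_P163408: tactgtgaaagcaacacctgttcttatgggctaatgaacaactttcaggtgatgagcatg
Gnal A_44_P137560: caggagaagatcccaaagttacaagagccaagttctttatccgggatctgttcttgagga
Gnal A_43_P10315: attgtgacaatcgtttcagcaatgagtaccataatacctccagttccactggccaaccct
Adcy3 A_44_P377278: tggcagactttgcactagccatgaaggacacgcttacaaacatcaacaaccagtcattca
Cnga4 A_44_P180099: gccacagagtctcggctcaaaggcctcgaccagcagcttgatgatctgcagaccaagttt
Cngb1 A_42_P747773: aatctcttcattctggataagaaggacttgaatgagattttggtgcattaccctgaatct

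The median signal of an array was 57.4 to 83.4 intensity units, and 26233 to 28741 probes per array were well above background as called by the scanner software. The tissue label was checked against markers. Omp and Stoml3, markers of mature olfactory neurons, were brighter than 96.7% and 99.0% of all probes, with Rtp1 at 74.0%, and the sustentacular cell genes Cyp2g1, Cyp2a3 and Ugt2a1 than at least 98.9%, with Ermn at 89.8%. The respiratory ciliated cell genes Foxj1 and Tekt1 were brighter than 98.6% and 83.3%. Of 3 skeletal muscle probes, 0 were detected on 11 or more arrays. Blood genes were bright and uneven, with a summed signal of Hbb and Alas2 between 91.1 and 1383 times the array median over the rats. Vomeronasal Trpc2 was detected on all 15 arrays by 1 probe and on 6 by the other. Of the 4 slides, the first carried all arrays of males 1 and 2 with array 3A, the second arrays 3B, 4A and 4B, the third those of males 5 and 6, and the fourth those of females 7 and 8. Array names join the rat and the nostril.

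All transduction genes were detected in every sample. The 13 probes were well above background on all 15 arrays, against 61.3% of all probes, and no spot was saturated. Levels are given as log2 of the signal over the array median, averaged over nostrils and then over the 8 rats, with the standard deviation (SD) between rats. Of the 13 probes, 5 were brighter than 90% of all probes, 7 lay between the 50th and 90th percentiles, and 1 lay below the 50th. A percentile places the brightness of a probe, not the amount of a transcript, because probes differ in how well they hybridize.

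**Figure D1:**
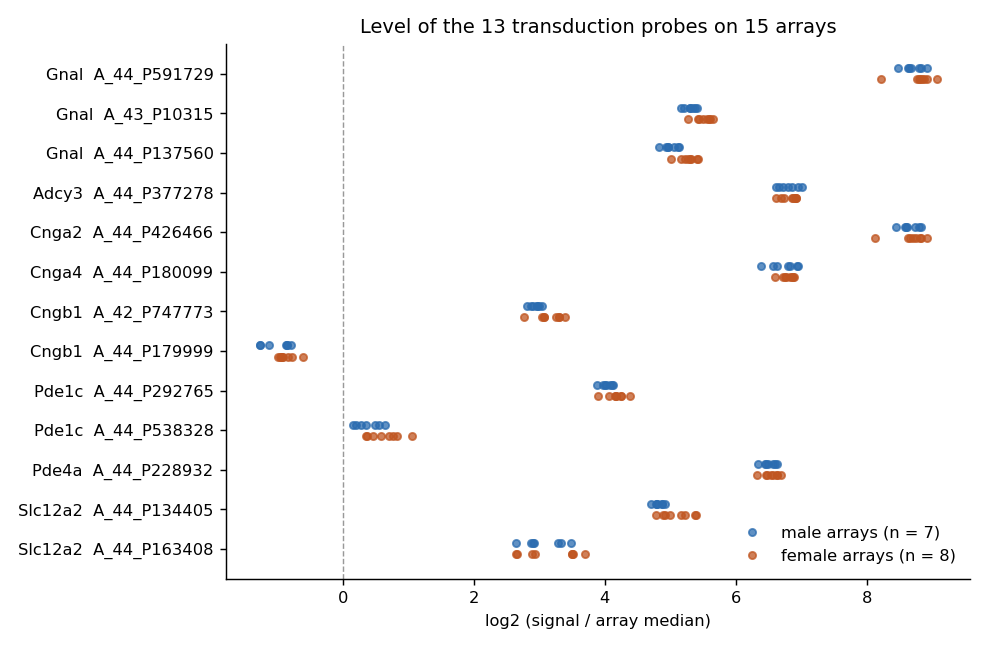
Level of each of the 13 probes on each array, as log2 of signal over array median (horizontal axis), with male arrays in blue and female arrays in orange and a dashed line at the array median. Only the Cngb1 probe A_44_P179999 lies below the array median, and the Slc12a2 probe A_44_P163408 falls into an upper and a lower set of arrays in each sex.

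Gnal encodes the G protein subunit that receptors activate. Its probe A_44_P591729 had a mean level of 8.74 ± 0.17 (SD, n = 8 rats), 427 times the array median, and ranged over the 15 arrays from 8.21 through a median of 8.80 to 9.06. The other Gnal probes read 5.41 ± 0.14 for A_43_P10315 and 5.13 ± 0.18 for A_44_P137560 (SD, n = 8 rats). The Gnal probes lay at percentiles 98.7, 89.1 and 87.7 in this order, and their correlations with each other over the rats were r = 0.55 to 0.82. Adcy3, the cyclase that makes the cAMP, had a mean level of 6.80 ± 0.12 (SD, n = 8 rats), with a lowest, median and highest array of 6.61, 6.85 and 7.01.

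Among the channel subunits, Cnga2, a subunit that binds cAMP and helps form the pore, had a level of 8.66 ± 0.13 (SD, n = 8 rats), with a lowest, median and highest array of 8.12, 8.70 and 8.91. Cnga4, a subunit that speeds the calcium feedback on the channel, read 6.75 ± 0.15 (SD, n = 8 rats), from 6.39 through 6.80 to 6.94. The Cngb1 probe A_42_P747773 read 3.05 ± 0.17 (SD, n = 8 rats), from 2.77 through 3.03 to 3.39. The other Cngb1 probe, A_44_P179999, read -0.95 ± 0.15 (SD, n = 8 rats), at percentile 42.8. The annotation describes its transcript as that of the glutamic-acid rich protein, a product of the same gene known from rod photoreceptors. The Cngb1 probes lie 40882 bases apart and correlated at r = 0.51 over the rats.

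Next in the pathway come the enzymes that remove cAMP and the cotransporter. Pde1c, the calcium-stimulated enzyme of the cilia, read 4.10 ± 0.12 at A_44_P292765 and 0.53 ± 0.21 at A_44_P538328 (SD, n = 8 rats). Pde4a was the steadiest of the 13 at 6.52 ± 0.09 (SD, n = 8 rats), with arrays from 6.33 through 6.54 to 6.69, a 1.29-fold range. Only 11.7% of expressed probes had a between-rat SD as small or smaller. The Slc12a2 probe A_44_P134405 read 4.96 ± 0.21 and A_44_P163408 read 3.14 ± 0.38 (SD, n = 8 rats). The latter was the most variable of the 13 between rats, with an SD above that of 92.6% of expressed probes, and ranged 2.08-fold over the arrays.

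As a set, the transduction probes varied about as much as other expressed probes. Their between-rat SD had a median of 0.152, against 0.158 over the 26636 probes detected on at least 11 arrays and measured on all, and 6 of 13 lay above that median. The SD of a nostril within a rat had a median of 0.092, against 0.113 over the same probes, with 4 of 13 above. These counts describe the list and were not tested. The members are bright, with a median percentile of 87.7 over all probes. Probes of like brightness were not matched, here or for the single probes above.

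The rats were compared within each sex, with the difference between nostrils as the error, to ask whether animals differed in the transduction genes. One of the Slc12a2 probes differed between rats. This probe, A_44_P163408, passed the 1% false discovery rate (limma, F = 42.8, adjusted p = 0.000543) and was the only member probe to do so, against 2.79% of the 27574 probes tested. At 5%, 3 of 13 member probes passed, against 16.1% of all probes: this one, the other Slc12a2 probe (F = 7.84, adjusted p = 0.027) and Cnga4 (F = 7.55, adjusted p = 0.0288). Neither of the latter passed at 5% with normexp (limma, adjusted p = 0.918 for both), with slide as a block (0.492 and 0.395) or with all probes tested (0.0563 and 0.0601). The call of A_44_P134405 was also lost without female 7 (0.0563), female 8 (0.103) or array 8A (0.0821), and that of Cnga4 with the ratio table (0.0638) and without male 2 (0.122), male 5 (0.057) or female 7 (0.0579). The other 10 had adjusted p-values of 0.0863 or more. Some of these passed at 5% under an alternative (limma): Cngb1 A_42_P747773 with the 75th percentile (0.0425) and quantile normalization (0.0435), Gnal A_43_P10315 with quantile normalization (0.0475), and Pde1c A_44_P538328 without female 3 (0.0366) or array 3A (0.023). The share of members called at 5% is thus near the share of all probes.

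The Slc12a2 probe A_44_P163408 was high in rats 1 to 4 and low in rats 5 to 8. In the former its levels were 3.49 in array 1A, 3.28 and 3.33 in the nostrils of male 2, 3.52 and 3.70 in those of female 3, and 3.50 and 3.49 in those of female 4. In the latter they were 2.90 and 2.92 in male 5, 2.65 and 2.87 in male 6, 2.89 and 2.94 in female 7, and 2.65 and 2.64 in female 8. Neither the arrays nor the rat means of these sets overlapped. With normexp background correction the arrays overlapped, the step was 0.58, and the between-rat call was lost (limma, F = 4.31, adjusted p = 0.249). The mean over rats was 3.48 ± 0.13 in rats 1 to 4 and 2.81 ± 0.13 in rats 5 to 8 (SD, n = 4 rats each), a difference of 0.67 or 1.59-fold, larger in size than that of 98.6% of tested probes. This division was chosen after the values were seen, so the difference has no test of its own.

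The probe is printed at 10 spots, which gives its error within an array. The SD over spots was 0.030 to 0.062 on the 15 arrays. This is printing and scanning noise and does not measure the spread between rats or slides. Of 149 spots used, the lowest in rats 1 to 4 read 3.21 and the highest in rats 5 to 8 read 3.01. Rats 1 to 4 lay on slides 1 and 2 and rats 5 to 8 on slides 3 and 4, so rats and slides cannot be told apart in this step. Since the supplier is known for male 1 alone, a difference between suppliers cannot be told apart either. Whether the rats carry the same sequence under this probe was not tested. Within slides, where only the 4 neighboring pairs of rats can be compared, the probe had F = 6.64 (limma, adjusted p = 0.194), and 1 of the 27574 probes passed.

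The second Slc12a2 probe had another order of rats. A_44_P134405 read 4.87 in male 1, 4.74 in male 2, 5.30 in female 3, 5.27 in female 4, 4.79 in male 5, 4.90 in male 6, 4.96 in female 7 and 4.84 in female 8, as means over nostrils. Females 3 and 4 stood above the other rats, male 1 lay among rats 5 to 8, and male 2 was the lowest of all. Over the 8 rats the probes correlated at r = 0.58, and the difference between their readings ranged from 1.38 to 2.19 over the rats. They lie 39324 bases apart on chromosome 18.

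**Figure D2:**
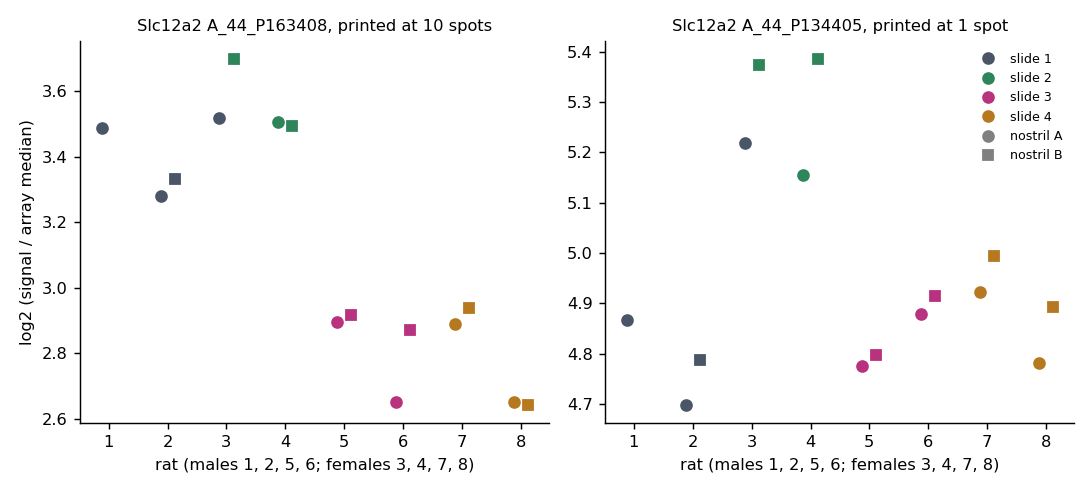
Level of the Slc12a2 probes A_44_P163408 (left) and A_44_P134405 (right) by rat, as log2 of signal over array median, with circles for nostril A, squares for nostril B and colors for the slide. The left probe lies at 3.28 to 3.70 in rats 1 to 4 and at 2.64 to 2.94 in rats 5 to 8, while the right probe is highest in females 3 and 4. The vertical axes do not start at 0.

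Of the 13 member probes, 2 had rat means that did not overlap between rats 1 to 4 and rats 5 to 8, against 11.3% of the probes tested. The other was Cnga2, which went the opposite way, with 8.57 ± 0.09 in rats 1 to 4 and 8.75 ± 0.08 in rats 5 to 8 (SD, n = 4 rats each). Its between-rat F of 1.20 did not pass (limma, adjusted p = 0.482). The lack of overlap rests on array 3A. Without it, an alternative added after seeing the data, the means were 8.65 ± 0.13 and 8.75 ± 0.08 (SD, n = 4 rats each), the rat means overlapped and the difference went from -0.18 to -0.10. Array 3A read 8.12 for Cnga2, while nostril B of the same rat read 8.82 and the other 13 arrays lay between 8.44 and 8.91.

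Cell-type markers were set beside this division. The 4 expressed vomeronasal probes are of Trpc2, Gnao1 and Gnai2, which other neurons also use. Their summed signal was 47.8 to 58.9 times the array median in rats 1 to 4 and 43.3 to 47.4 times in rats 5 to 8. The sum is mostly Gnao1, whose 2 probes were 0.23 and 0.38 higher in rats 1 to 4. Gnai2 was 0.30 lower there, and the Trpc2 probe was highest in male 1 (2.37). Of these 4 probes, 2 passed at 1% between rats, as did both blood probes, against 2.79% of all tested probes. With slide as a block, 1 of the 27574 tested probes passed. Mature neuron markers summed to 668 to 818 in rats 1 to 4 and 698 to 792 in rats 5 to 8. Sustentacular markers summed to 2462 to 3287 and 2602 to 3176, and blood genes to 112 to 826 and 91.1 to 1383, in the same order. Horizontal basal cell markers gave 247 to 302 and 252 to 359. The part of these cells in the step was not tested. In bulk tissue, fewer cells of a type and less RNA per cell cannot be told apart.

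Cnga4 passed only at 5% between rats. Its rat means were 6.62 in male 1, 6.48 in male 2, 6.84 in female 3, 6.73 in female 4, 6.89 in male 5, 6.86 in male 6, 6.88 in female 7 and 6.68 in female 8. Males 1 and 2 were the lowest, and both lay on slide 1, where array 3A read 6.86.

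The sexes were compared to ask whether odor transduction differs between males and females at the transcript level. No transduction probe passed at 1% or 5% (limma, lowest adjusted p = 0.142), against 0.0434% of the 27625 probes tested at 1%. The methods' t-test, adjusted in the same way, also called 0 of 13. All 13 member probes had a higher mean in females, with differences from 0.02 to 0.27 and a median of 0.13, while 52.1% of all tested probes were higher in females and their median was 0.01. The count of 13 changed to 12 with scaling to the 75th percentile of the array, which moved the median of all tested probes to -0.02. All 13 lay above the median of all tested probes under both scalings. The count changed to 9 with another background correction (normexp), and to 9 to 13 when each rat was left out, lowest without male 2. The 13 probes come from 8 genes measured in the same rats and are not independent.

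The smallest p-values belonged to Gnal and Slc12a2. Gnal A_44_P137560 read 4.96, 4.90, 5.09 and 5.02 in males 1, 2, 5 and 6, and 5.41, 5.27, 5.28 and 5.09 in females 3, 4, 7 and 8. Males and females met only where male 5 and female 8 both read 5.09. The means were 4.99 ± 0.08 and 5.26 ± 0.13 (SD, n = 4 rats each), and the difference of 0.27 (SE 0.08) had an adjusted p of 0.142 by limma. The difference was 0.19 (SE 0.07) for Gnal A_43_P10315 (limma, adjusted p = 0.23) and 0.08 (SE 0.10) for the brightest Gnal probe (limma, adjusted p = 0.72). Without array 8A, which stood apart for this probe, its difference was 0.15 (limma, adjusted p = 0.311), and with each rat left out it was 0.02 to 0.18. Slc12a2 A_44_P134405 differed by 0.27 (SE 0.11; limma, adjusted p = 0.241), with females 3 and 4 above and females 7 and 8 near the males. These 3 probes, 2 of Gnal and 1 of Slc12a2, had an unadjusted p under 0.05, or 3 of 13, against 17.1% of all tested probes.

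For the other genes the unadjusted p was not under 0.05. Cngb1 A_42_P747773 read 2.95 ± 0.04 in males and 3.15 ± 0.20 in females (SD, n = 4 rats each). Pde1c A_44_P292765 read 4.04 ± 0.06 and 4.17 ± 0.14 in the same order. Adcy3, Cnga2, Cnga4 and Pde4a differed by 0.03, 0.02, 0.07 and 0.04. In none of the 13 probes were the 4 male and 4 female rat means free of overlap, against 11.3% of tested probes.

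**Figure D3:**
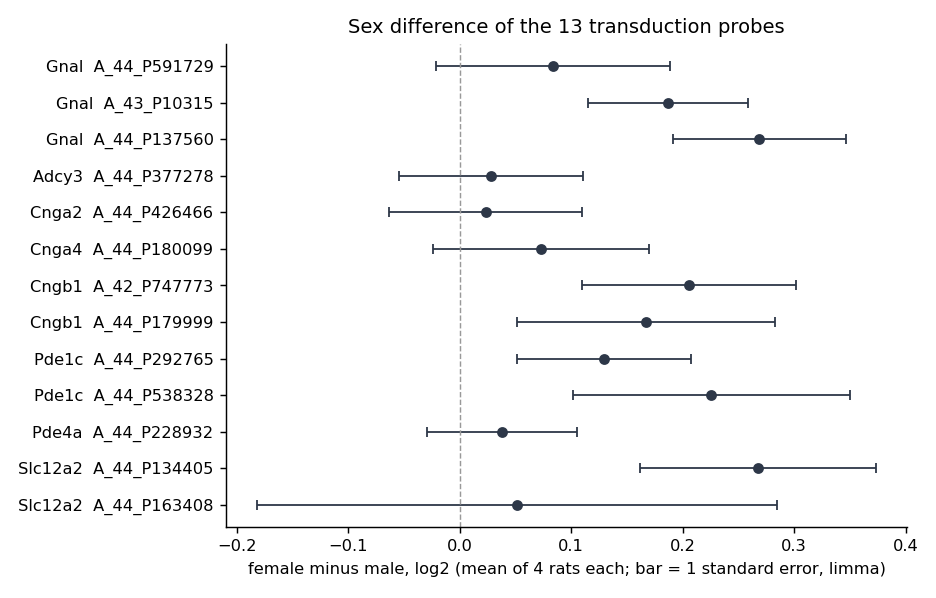
Female minus male difference of each probe on the log2 scale, from means of 4 rats per sex, with bars of 1 standard error from limma and a dashed line at no difference. All 13 points lie to the right of the line, from 0.02 for Cnga2 to 0.27 for Gnal A_44_P137560, and none passed the test.

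Cell-type markers differed in direction between the sexes, and 0 of the marker probes passed at 5% by limma. Sustentacular markers summed to 2462 to 3004 times the array median in males and 2871 to 3287 times in females. The sum is mostly Cyp2a3, which differed by 0.11. Of the 4 sustentacular probes, 3 had an unadjusted p under 0.05: Ugt2a1 (0.43 higher in females; limma, adjusted p = 0.0825), Cyp2g1 (0.31; adjusted p = 0.0982) and Ermn (0.50; adjusted p = 0.129). The median difference over the 4 was 0.37, against 0.13 for the members. Mature neuron markers summed to 668 to 730 and 698 to 818, a sum that is mostly Stoml3. Stoml3 was 0.15 higher in females (limma, adjusted p = 0.249), while Omp and Rtp1 differed by -0.01 and -0.02. Blood genes were lower in females, at 196 to 1383 in males and 91.1 to 826 in females. The 4 tested horizontal basal cell probes also had lower means in females (median difference -0.22), as did 2 of 5 immature neuron probes, among them Gng8 (-0.24). Omp itself, which marks mature olfactory neurons, was level, with a mean of 7.53 in males and 7.52 in females. The part of these cells in the differences of the members was not tested.

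With slide as a block, only slide 1 holds both sexes, with the single array 3A of a female against 3 arrays of males 1 and 2. Rat was a random block in this fit, so array 3B on slide 2 also enters. The fitted values rest largely on array 3A and are no calls between the sexes. The fitted female minus male difference was 0.46 for Gnal A_44_P137560, 0.41 for Slc12a2 A_44_P134405 and -0.45 for Cnga2. Slides 3 and 4 each held 1 sex and gave no value.

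Nostrils A and B of a rat were compared. The labels do not say whether A is the same side in every rat. A difference between left and right could therefore cancel, and the comparison cannot say whether the sides differ. No transduction probe differed between nostrils A and B, and neither did any of the 27574 probes tested, of which 0% passed at 1% (limma). Among members, 1 of 13 had an unadjusted p under 0.05, against 5.89% of all tested probes. This was Slc12a2 A_44_P134405, higher in nostril B in 7 of 7 rats, by 0.02 to 0.23, with a mean of 0.10 (SE 0.03; limma, adjusted p = 0.781). With normexp its mean turned to -0.03, and the members with a higher mean in nostril B went from 11 to 3 of 13. The median over all tested probes also went from 0.01 to -0.05, and the members above that median went from 11 to 7. Without the rat as a block, 0 members had an unadjusted p under 0.05, against 404 of the 27574 probes tested in that fit. The letters A and B come from the labels. The nostril difference did not depend detectably on sex either. The interaction passed for 0% of probes, and 0 of 13 members had an unadjusted p under 0.05, against 2.36% of all tested probes (limma).

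Within single rats, the member probes leaned to 1 nostril in 3 of 7 rats, and in each of these the tested probes of the whole array leaned the same way. In male 6 all 13 member probes were higher in nostril B, with a median difference of 0.19, against 67.5% of tested probes and a median of 0.08. In female 8 this held for 12 of 13, with a median of 0.16, against 64.6% and 0.05. In male 2 only 3 of 13 were higher in nostril B, with a median of -0.11, against 34.9% and -0.05. In the other 4 rats, 5 to 7 of 13 were higher in B, with medians from -0.04 to 0.01, against 38.9% to 54.0% of tested probes. The single-nostril departures were larger for some genes. Gnal A_44_P591729 read 8.21 in nostril A of female 8 and 8.76 in nostril B, while the other Gnal probes rose by 0.16 and 0.15 between these arrays. Cnga2 differed by 0.70 between the nostrils of female 3, and Pde1c A_44_P538328 by 0.69, from 0.36 in 3A to 1.05 in 3B. The nostrils of female 3 lay on different slides.

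**Figure D4:**
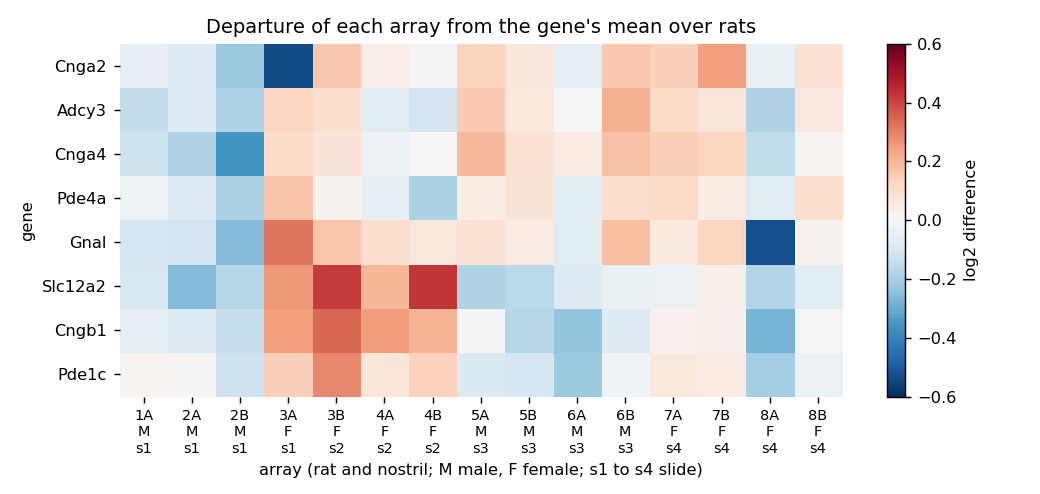
Departure of the brightest probe of each gene from its mean over rats, on the log2 scale, for each array (columns, with rat, nostril, sex and slide). The darkest cells are Cnga2 on array 3A and Gnal on array 8A, and Slc12a2, Cngb1 and Pde1c are high together in females 3 and 4.

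The genes were then compared with each other across the 8 rats, using the brightest probe of each. These correlations are descriptions over 8 points that share slides and scaling, and none was tested. Of the 28 pairs, 25 had an r above 0, with a median of 0.35 and a range from -0.35 to 0.96. One set was Adcy3, Cnga4 and Pde4a, with r of 0.91 for Adcy3 and Cnga4, 0.82 for Adcy3 and Pde4a and 0.79 for Cnga4 and Pde4a. Another was Cngb1, Pde1c and Slc12a2, with r of 0.96 for Cngb1 and Pde1c, 0.95 for Cngb1 and Slc12a2 and 0.87 for Pde1c and Slc12a2. By rank the values of this set were lower for Slc12a2, with rho of 0.98, 0.69 and 0.67 in the same order, and those of the first set were 0.79, 0.81 and 0.69. Between the sets, r ranged from 0.06 to 0.33. Gnal correlated with both sets, at 0.48 to 0.76. Cnga2 had its highest r, 0.56, with Cnga4, and its lowest, -0.35, with Pde1c.

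In the rats, the set with Cngb1 was high in females 3 and 4. Cngb1 A_42_P747773 read 3.34 and 3.28 in these females and 2.89 to 3.08 in the other 6 rats. Pde1c A_44_P292765 read 4.31 and 4.21 there and 3.98 to 4.16 elsewhere. The summed vomeronasal markers were also highest in these females (58.3 and 58.9 times the array median, against 43.3 to 53.2 in the others). That sum is mostly Gnao1. Gnai2 was lowest of all in female 4 (0.84), and the Trpc2 probe in the sum was highest in male 1 (2.37). Sustentacular markers summed to 3287 and 3077 in females 3 and 4, against 2462 to 3176. The part of these cells was not tested. In the other set, Adcy3 read 6.65, 6.67, 6.71 and 6.73 in males 1 and 2 and females 4 and 8, and 6.89 to 6.91 in the other 4 rats.

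**Figure D5:**
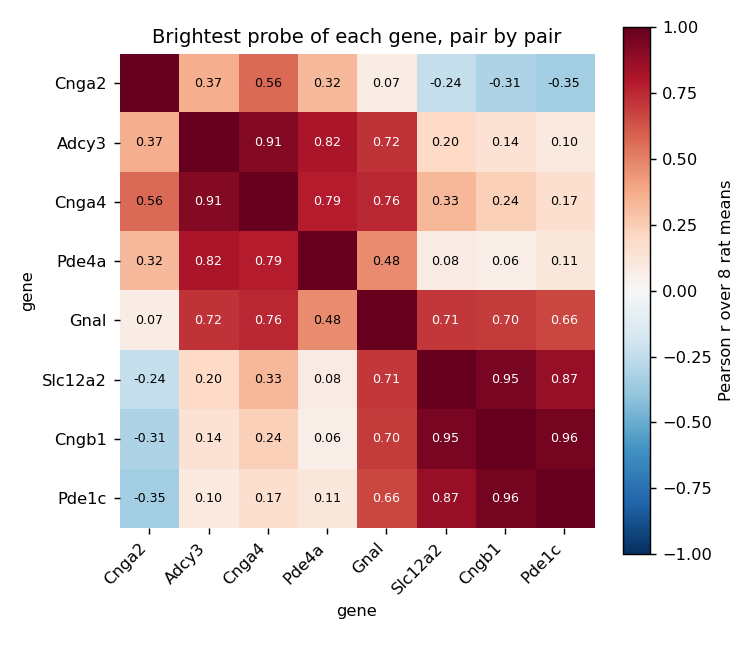
Pearson r over 8 rat means for each pair of genes, with the brightest probe of each gene and a color scale from -1 (blue) to 1 (red). The dark blocks are Adcy3, Cnga4 and Pde4a, with r from 0.79 to 0.91, and Slc12a2, Cngb1 and Pde1c, with r from 0.87 to 0.96.

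Omp served as the measure of mature neurons. Its level was 7.52 ± 0.10 (SD, n = 8 rats), lowest in female 4 (7.40) and highest in female 7 (7.65). Among the 8 genes compared, none was significantly correlated with Omp after adjustment over the 8 (exact permutation tests, two-sided). Adcy3 had r = 0.84 (exact permutation p = 0.0272, adjusted p = 0.11) and rho = 0.64 (exact permutation p = 0.0962, adjusted p = 0.23). Pde4a had r = 0.77 (exact permutation p = 0.0275, adjusted p = 0.11) and rho = 0.79 (exact permutation p = 0.0279, adjusted p = 0.223). Cnga4 and Gnal had r of 0.70 and 0.69 and rho of 0.67 and 0.62 (exact permutation, adjusted p of 0.138 for each r and 0.23 for each rho). Cnga2, Cngb1, Pde1c and Slc12a2 had r of 0.09 to 0.26 and rho of 0.19 to 0.31. Without female 4 and female 8, the rats farthest from the median of Omp, r was 0.90 for Adcy3, 0.93 for Pde4a, 0.90 for Cnga4 and 0.92 for Gnal, and Pde4a passed at 5% (exact permutation, adjusted p = 0.0444). Other settings also gave an adjusted p for r under 0.05 (exact permutation): Adcy3 and Pde4a with nostril A alone (0.0464 each), Gnal without female 4 (0.0286) and Pde4a without female 8 (0.0222). Slides held too few rats for a value within each. The relation is given over all 8 rats and not within a sex, since 4 rats are too few.

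For each gene, the named genes most like its brightest probe were sought among 12651 probes detected on at least 11 arrays. Likeness was Pearson r over the 8 rat means and is a description. With 8 points, 2.32% to 15.1% of these probes exceeded an r of 0.70, depending on the gene, so high values are common. Gnal was most like Slc25a5, the adenine nucleotide carrier of mitochondria (r = 0.98), Wdr35 and Fkbp5 (0.96 each). Adcy3 was most like Ches1, Sbds and Bok (0.99, 0.99 and 0.98). Cnga2 was most like H3f3b, which encodes a histone, Acyp1 and Scgb3a1 (0.96, 0.96 and 0.94), and Cnga4 most like Skiv2l, Egfl9 and Usp25 (0.97, 0.97 and 0.96). Cngb1 was most like Syt11, Nt5c3 and Trim2 (0.99 each), and Pde1c most like Cyb5r1, Ddx3x and Fstl5 (0.98 each). Pde4a was most like Eral1, Fut8 and Nsg1 (0.95, 0.94 and 0.94), and Slc12a2 most like Bclaf1, Hbs1l and Bin3 (0.98 each).

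The partners of the pathway were measured as well. Of 10 genes listed, 8 had a probe and 7 an expressed one: Omp, the G protein subunit Gnb1, the Gnal chaperone Ric8b, the calcium exchanger Slc24a4, the receptor transport genes Rtp1 and Reep1, and Stoml3. Of their 11 tested probes, 0 passed at 1% between the sexes, the nostrils or the rats (limma), and 3, 0 and 3 had an unadjusted p under 0.05, against 17.1%, 5.89% and 37.1% of all tested probes. Ric8b passed at 5% between rats (limma, adjusted p = 0.0292). It read from 3.74 in male 2 to 4.44 in female 3.

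Relatives of the members were present at varied brightness. Among the G alpha genes, 12 of 15 had an expressed probe, and the brightest read 6.64 ± 0.12 (SD, n = 8 rats) for a Gnas probe that the annotation names Xlas, at percentile 94.2. Of 9 other adenylyl cyclases 7 had an expressed probe, led by Adcy6 at 5.61 ± 0.09. Of the other channel subunits, Cnga1 read 1.46 ± 0.35 (percentile 61.7) and was detected on all 15 arrays, and the single Cnga3 probe was well above background on no array. Of 16 other phosphodiesterases 12 had an expressed probe, led by Pde7b at 3.51 ± 0.41 (percentile 77.0), and of 8 other cotransporters 5, led by Slc12a7 at 7.18 ± 0.13 (percentile 95.8). Over these families 0 probes passed at 1% between the sexes or nostrils. Between rats, 1 of 15 tested G alpha probes passed (Gnao1; limma, F = 19.7, adjusted p = 0.0038), 1 of 10 cyclase probes (Adcy5; limma, F = 31.7, adjusted p = 0.00128) and 0 in the other families, against 2.79% of all tested probes. An unadjusted p under 0.05 was found for 9 of 15 G alpha, 3 of 10 cyclase, 1 of 1 channel, 3 of 14 phosphodiesterase and 1 of 9 cotransporter probes, against 37.1% of all tested probes. With slide as a block, 1 of the 27574 tested probes passed at 1% between rats.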

How the data were processed

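RNA of 15 olfactory epithelium samples was labeled with Cy3 and hybridized singly to Agilent 60-mer rat genome arrays. The deposited intensity of each spot was extracted by the authors with Feature Extraction, per the file headers with the local background subtracted and spatial trends corrected, without scaling between arrays. A deposited table of ratios holds each signal over its array's median and its probe's median (100% of values within 2% of this calculation over 18917 bright probes), and served as an alternative.

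Spots marked as outliers were dropped and spots of a probe averaged. Each signal was taken over the median of its array, raised to a floor of 0.1 of it and converted to log2. A probe well above background on at least 11 arrays counted as expressed, and probes detected on at least 7 arrays were tested. Sexes were compared on rat means, nostrils with rat as a block (the nostrils of a rat pair by nature), and rats of a sex by F-statistic, with limma 3.58.1 (trend on) in R 4.3.3, two-sided, adjusted by Benjamini-Hochberg over all probes. Tests on single arrays used 27574 probes, since others had a dropped spot. The fits were tested on simulated data. The number of rats limits the precision.

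The named probes were all 13 of the members. Of the partners and relatives, counts were given for all and values for Omp and for the brightest expressed relative of each family, and likeness was sought for the brightest probe of each member. Ric8b, Gnao1 and Adcy5 were named after their values were seen. Older names were matched by accession for 7 listed genes. Members and lists were chosen with earlier results of these data known.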

Additional observations from a re-analysis of the deposited data

Results flagged for a closer look

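Over the 8 female arrays, 2 values stood apart from the rest. The brightest Gnal probe, A_44_P591729, read 8.21 in array 8A, and its gap to the nearest array was 0.648 of the range of the group. Cnga2 read 8.12 in array 3A, with a gap of 0.631 of the range. Chance flags about 1 in 20 groups, and 26 groups of arrays were examined. The nostrils of a rat are not independent. Over rat means, 0 of 26 groups had such a value. Without array 3A, Cnga2 was 0.11 higher in females (limma, adjusted p = 0.414), and its F between rats was 2.82 (limma, adjusted p = 0.159). Without array 8A, the Gnal probe A_44_P591729 was 0.15 higher in females (limma, adjusted p = 0.311), and its F between rats was 2.68 (limma, adjusted p = 0.219).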

How the results depend on the processing

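Counts of member probes past 1% by sex, by nostril and by the interaction were 0 under every alternative run, with 0 to 0 when each rat was left out. Between rats the count was 1, and 1 to 1 with each rat left out, but 0 with normexp and with slide as a block, and 3 at 5%. The call of Slc12a2 A_44_P163408 held under 16 of 18 alternatives (limma, adjusted p from 0.000341 to 0.249). Its F fell from 42.8 to 4.31 with normexp and 6.64 with the slide block, which leaves out contrasts between slides, and was 27.9 to 65.5 with each rat left out. Its step was 0.58 with normexp, where arrays overlapped, and 0.67 to 0.68 otherwise. The median level of the 13 probes moved from 5.13 to 1.90 with the 75th percentile, a shift of scale, and to 4.18 with normexp. Counts over all probes also moved: by sex 12 became 3 with only probes detected on at least 11 arrays, 6 with the ratio table, 8 with the methods' t-test, 468 with slide as a block, 21 with a random rat block and 1031 with independent arrays, and between rats 768 became 1305 with the 75th percentile, 1450 with quantile normalization, 356 with the ratio table, 78 with normexp, 186 to 898 with each rat left out, 184 without array 8A (an alternative added after seeing the data) and 1 with the slide block.

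Differences between the sexes turned sign with normexp for Gnal A_44_P591729 (-0.018), Adcy3 (-0.0193), Cnga2 (-0.121) and Pde4a (-0.044), with the 75th percentile for Cnga2 (-0.00432), and with the slide block for Cnga2 (-0.449) and Pde1c A_44_P538328 (-0.243). The 75th percentile moved the median over all tested probes from 0.00919 to -0.0184, and Cnga2 stayed above that median. With each rat left out the differences between the sexes ranged from -0.0149 to 0.069 for Adcy3, -0.0379 to 0.0894 for Cnga2, -0.00537 to 0.131 for Cnga4, -0.000329 to 0.0846 for Pde4a and -0.0955 to 0.225 for Slc12a2 A_44_P163408. The nostril difference of Slc12a2 A_44_P134405 turned to -0.0264 with normexp, where the median over all tested probes was -0.0522. The causes were not tested.

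For Omp, 0 genes passed at 5% in the main setting, 2 with nostril A alone, 1 without the rats farthest from the Omp median, and 0 to 1 with each rat left out (Gnal without female 4, r = 0.948, and Pde4a without female 8, r = 0.945). The r turned to -0.269 for Cnga2 with nostril A alone, and to -0.0179 for Cngb1 and -0.107 for Slc12a2 with the 75th percentile. With each rat left out, r ranged from -0.157 to 0.665 for Cnga2, -0.235 to 0.605 for Cngb1, -0.0829 to 0.57 for Pde1c and -0.29 to 0.587 for Slc12a2.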
